A study of Mus musculus with 18 samples.

Results

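The genes described here are 10 transcription factors of the cardiac lineage: Gata4, Gata6, Nkx2-5, Tbx5, Tbx20, Hand2, Mef2a, Mef2c, Mef2d and Srf. They were taken by name, through their Ensembl identifiers, from a count table of 30583 genes, and all 10 had enough counts to be tested among the 16311 genes that passed the filter on low counts. The study followed the mouse heart through the 72 h after a myocardial infarction (MI), with 18 male 12-week-old C57BL/6JR mice in 6 groups of 3 and 18 poly(A)-selected RNA libraries. In 5 groups a ligature closed the left anterior descending (LAD) coronary artery under pentobarbital anaesthesia, and tissue was taken, under isoflurane, after 10 min, after 1 h or 6 h, or after 24 h or 72 h. Sham animals (0 h) were operated on alike, with a suture placed but left untied. No transgene, allele or drug treatment beyond anaesthesia is named for any group. RNA came from the myocardium of the infarcted left ventricle.

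GATA4, NKX2-5 and TBX5 bind together at the enhancers of cardiac muscle genes, and with TBX20, HAND2 and GATA6 they build the heart in the embryo and remain expressed in the adult myocardium. MEF2 proteins and SRF are MADS-box factors. MEF2 activity in muscle is held back by class II histone deacetylases, and SRF drives immediate early genes or muscle and cytoskeletal genes depending on which cofactor is bound. Several of these factors are also made outside the cardiomyocyte, as Gata4, Gata6, Tbx20 and Hand2 are in cardiac fibroblasts or other stromal cells.

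Libraries held 18.2 to 25.1 M counts, and every member had at least 185 counts in each library. The labels give cardiomyocytes as the cell type of a myocardial tissue sample, but markers of fibroblasts, endothelium and macrophages were present in every library, so the samples were read as whole tissue. Summed over 15 cardiomyocyte markers, counts scaled to CPM (per 1 M counts) were 85284 to 91406 in sham, 39435 to 58444 at 24 h and 21978 to 29730 at 72 h. The sum of 10 fibroblast markers was 2241 to 2564 CPM in sham and 13448 to 16669 at 72 h, and that of 10 macrophage markers was 377 to 439 in sham and 4065 to 5260 at 72 h. The 10 endothelial markers summed to 2376 to 2446 in sham and 1277 to 1530 at 72 h. Mitochondrial transcripts made up 22.3% to 27.4% of counts up to 6 h and 8.41% to 10.5% at 72 h. In such tissue, fewer cells of a type and less RNA per cell cannot be told apart. Replicate 1 at 6 h stood apart from the other 17 libraries by atrial transcripts: Myl7 was at 49.3 CPM and Sln at 42.6 CPM, against at most 1.10 and 0.474 elsewhere. Myl4 and Bmp10 were also highest in that library, at 59.1 and 21.2 CPM. Another listed atrial marker, Nr2f2, was not, at 15.3 CPM against 13.2 and 19.2 in the other 6 h libraries. Results at 6 h are therefore also given without replicate 1.

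Levels are given as CPM after scaling with edgeR's trimmed mean of M-values (TMM), which sets the bulk of genes equal between libraries. Changes are log2 fold changes from edgeR's quasi-likelihood model, with a standard error (SE) and a Benjamini-Hochberg adjusted p over all 16311 genes, and a gene was called when that p was under 0.05. The scaling matters at late times, and of the genes called at 72 h 51.4% were higher by TMM and 79.9% by library total. Relative to the library total alone, the median of all tested genes moved by -0.12 at 6 h, 0.20 at 24 h and 0.61 at 72 h (log2), whereas under TMM it was 0.03 at 72 h. A fit scaled to the 15 cardiomyocyte markers moved that median by 0.11, 0.75 and 1.81. Directions at 72 h are given on all 3 scales, of which TMM places a gene against the typical gene and the marker scale against contractile mRNA.

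In sham hearts the 10 factors were compared by level per length. In FPKM, fragments per kilobase and per 1 M fragments, Nkx2-5 led at 84.9 ± 2.24 (SD, n = 3). Gata4 at 32.3 ± 0.949 and Srf at 30.9 ± 2.88 overlapped between animals, as did Gata6 at 17.7 ± 2.28 and Hand2 at 14.6 ± 2.03. Mef2d at 22.6 ± 0.197 lay between these pairs. Mef2a (10.0 ± 0.190), Tbx20 (5.92 ± 0.520), Tbx5 (4.76 ± 0.146) and Mef2c (4.38 ± 0.226) followed without overlap between neighbours. The gene lengths behind the deposited FPKM differ from GENCODE M21 for Nkx2-5, Srf and Gata6, so the places of these 3 rest on the depositors' lengths. For the others the length was the union of all exons, 15715 bases for Mef2c, so every place depends on the length used. At 72 h Srf, at 36.4 ± 0.143 FPKM, stood above Gata4 at 32.01 ± 1.05 without overlap. Lower in the order, Tbx20 stood at 11.6 ± 0.974 FPKM, overlapping Hand2 and above Mef2a at 10.4 ± 0.161, and Tbx5 was last at 1.91 ± 0.210.

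No member was called in the opening hour, the called members split between higher and lower at 6 h and 24 h, and every member was called at 72 h. At 10 min 0 members were called against 0.0736% of all genes, and at 1 h 0 against 0.294%. Unadjusted p-values under 0.05 were reached by 1 member at 10 min and by 2 members at 1 h in edgeR, against 7.01% and 5.51% of all genes, and DESeq2 called 0 members at both times. At 6 h 4 of 10 members were called against 28.4% of all genes, with Hand2 and Gata6 higher (16.3% of genes) and Gata4 and Mef2a lower (12.2%). Without 6 h replicate 1, 3 members were called at 6 h against 17.5% of genes, and Gata4 was not. At 24 h 4 of 10 were called against 43.8% of genes, with Hand2 higher (23.7%) and Tbx5, Mef2a and Mef2c lower (20.2%). At 72 h all 10 were called against 66.4% of genes: Tbx20 higher (34.2%) and the other 9 lower (32.2%) on the TMM scale. With 10 members, the shares called at 6 h and 24 h were near those of all genes. The median change of the members at 72 h was -0.71, that of all genes 0.03 and that of the 15 cardiomyocyte markers -1.57. The F test over all times called all 10 members, and 78.4% of genes. Each comparison with sham uses the same 3 sham libraries.

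**Figure D1:**
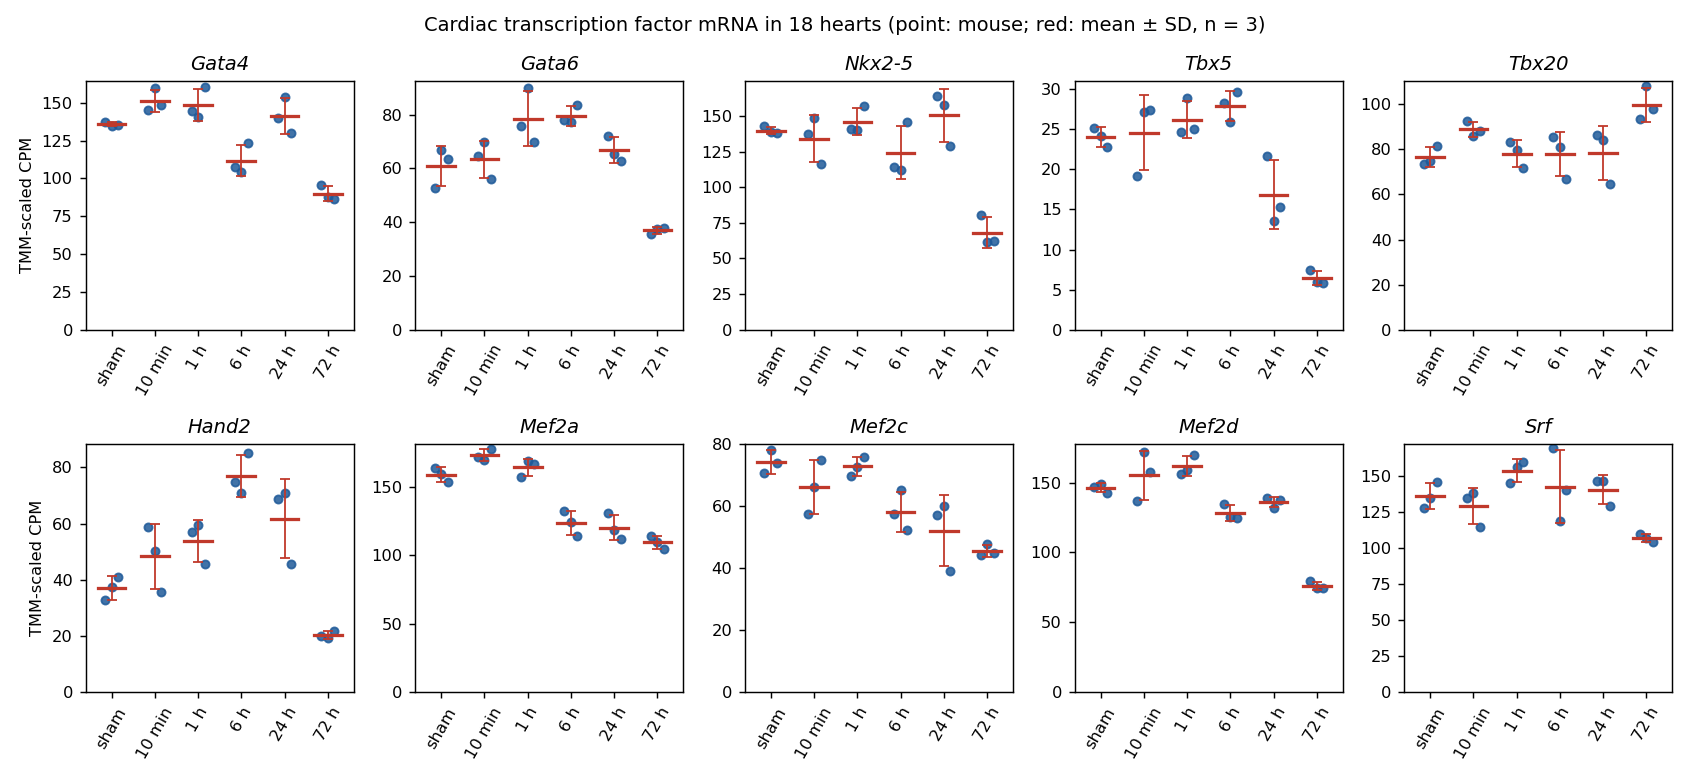
TMM-scaled CPM of each factor (linear axis from 0) in the 3 mice of each group, with the mean ± SD in red. Tbx5 fell to 5.89 to 7.41 CPM at 72 h, Hand2 peaked at 70.8 to 85.1 at 6 h, and Tbx20 alone was above all sham libraries at 72 h; on the scale of the library total, Mef2a and Srf were not lower at 72 h.

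The zinc finger factors Gata4 and Gata6, which bind the same GATA motif, were called in opposite directions at 6 h by TMM. Gata4 (ENSMUSG00000021944, chr14:63198922-63271692, - strand, GRCm38) stood at 137, 135 and 135 CPM in sham, 145, 159.7 and 149 at 10 min and 145, 140.4 and 161 at 1 h. It was 108, 104 and 123 at 6 h, 139.8, 154 and 130.1 at 24 h and 95.5, 87.6 and 86.6 at 72 h. All 3 libraries lay below sham at 6 h and at 72 h and above it, without a call, at 10 min and 1 h, while those at 24 h straddled it. The log2 change was -0.28 (SE 0.090, adjusted p = 0.025) at 6 h and 0.06 at 24 h (95% interval -0.13 to 0.24), and the step from 6 h to 24 h was itself called at 0.34 (SE 0.090, adjusted p = 0.0089). At 72 h Gata4 was at -0.60 (SE 0.090, adjusted p = 1.15e-05) on the TMM scale, -0.01 (adjusted p = 0.933) on the library total and 1.19 (adjusted p = 4.74e-08) against the cardiomyocyte markers. The 6 h decrease is weakly held: it missed the threshold without any 1 of the sham libraries (adjusted p = 0.0583 to 0.0731), against the markers (-0.17, adjusted p = 0.399), without 6 h replicate 1 (-0.26, adjusted p = 0.0934) and without 6 h replicate 2 (-0.23, adjusted p = 0.0901). Its return by 24 h missed it without 24 h replicate 2 (0.27, adjusted p = 0.0522).

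Gata6 (ENSMUSG00000005836) was at 52.5, 66.7 and 63.6 CPM in sham and 64.5, 69.7 and 56.1 at 10 min. It reached 75.8, 89.8 and 69.8 at 1 h and 77.8, 77.1 and 83.7 at 6 h, all above the sham animals. At 24 h it was 72.0, 65.4 and 62.9, overlapping sham, and at 72 h 35.6, 37.5 and 37.9, below every earlier library. The 1 h change of 0.36 had an adjusted p of 0.369 and the similar 6 h change of 0.38 one of 0.0132, at a time when far more genes moved. Without sham replicate 1, the lowest of the 3, the 6 h change was 0.29 (adjusted p = 0.0864). By library total it was 0.28 (adjusted p = 0.0785), and without 6 h replicate 1 it was 0.40 (adjusted p = 0.0304). At 72 h Gata6 was at -0.72 (SE 0.11, adjusted p = 1.23e-05) by TMM, -0.13 (adjusted p = 0.303) by library total and 1.07 (adjusted p = 3.98e-06) by the markers. From 6 h to 72 h it fell by 1.10 on the TMM scale (SE 0.11, adjusted p = 7.72e-08, a step at which 63% of all genes were called; library total -0.41, adjusted p = 0.00347), but against the markers it was called higher (0.58, adjusted p = 0.00262). The median of all tested genes moved by 1.67 on the marker scale over this step, so Gata6 lay under the typical gene there.

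Nkx2-5 (ENSMUSG00000015579, chr17:26838664-26845009, - strand), the homeobox factor that marks the cardiac lineage, was not called up to 24 h and then dropped by 51.3% against sham by TMM. Its CPM were 143, 139 and 138 in sham, 138, 149 and 116 at 10 min and 141, 140.3 and 157 at 1 h. They were 115, 112 and 146 at 6 h, 164, 158 and 129 at 24 h and 80.6, 61.7 and 62.1 at 72 h. Every group up to 24 h overlapped sham, and all 72 h animals were below all others. The 24 h change was 0.11 (95% interval -0.16 to 0.38), although 11 of the 15 cardiomyocyte markers were already lower at that time. Between 24 h and 72 h Nkx2-5 moved by -1.14 (SE 0.13, adjusted p = 1.08e-06). Against sham at 72 h it was -1.04 (SE 0.13, adjusted p = 1.28e-06) by TMM and still called lower by library total at -0.45 (adjusted p = 0.00318), but 0.73 (adjusted p = 5.23e-06) against the markers.

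Tbx5 (ENSMUSG00000018263, chr5:119832668-119885219, + strand), a factor of the atria and left ventricle whose mutations cause Holt-Oram syndrome in people, had the largest decrease of the 10 at 72 h by TMM and the only one past the median of the cardiomyocyte markers (-1.57). Its CPM were 25.2, 24.2 and 22.7 in sham, 19.2, 27.2 and 27.4 at 10 min, 24.7, 28.9 and 25.01 at 1 h and 28.3, 25.9 and 29.6 at 6 h. They were 21.7, 13.5 and 15.4 at 24 h and 7.41, 5.97 and 5.89 at 72 h. The 6 h animals lay above sham without a call (0.22, adjusted p = 0.321), all animals at 24 h were below sham and all at 72 h below those at 24 h. The changes were -0.51 (SE 0.16, adjusted p = 0.0135) at 24 h and -1.90 (SE 0.17, adjusted p = 1.39e-08) at 72 h, and 3.39% of all tested genes fell further at 72 h. At 72 h it was -1.32 (adjusted p = 3.55e-07) by library total and -0.13 (adjusted p = 0.499) against the markers, with a 95% interval of -0.52 to 0.25 there. The 24 h call was lost without 24 h replicate 2 (-0.37, adjusted p = 0.0762) or replicate 3 (-0.45, adjusted p = 0.0517), and by library total (-0.33, adjusted p = 0.0884), and against the markers the 24 h value was 0.21 (adjusted p = 0.309).

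Tbx20 (ENSMUSG00000031965, chr9:24718138-24774303, - strand), which acts as both an activator and a repressor of cardiac genes, was the single member above sham at 72 h on every scale. Its CPM were 73.3, 74.6 and 81.6 in sham, 92.4, 85.8 and 88.3 at 10 min and 83.1, 79.7 and 71.5 at 1 h. They were 85.4, 81.1 and 66.8 at 6 h, 86.4, 84.1 and 64.7 at 24 h and 93.4, 108 and 97.9 at 72 h. The 10 min libraries also lay above all sham libraries, without a call (0.22, adjusted p = 0.776), and those at 1 h, 6 h and 24 h overlapped sham. The 72 h change was 0.38 (SE 0.11, adjusted p = 0.00558) by TMM, 0.97 (adjusted p = 3.96e-07) by library total and 2.18 (adjusted p = 4.52e-10) against the markers. By TMM, 64.2% of all tested genes had a lower change. The rise from 24 h to 72 h, 0.35 (SE 0.11, adjusted p = 0.0145), was lost without 24 h replicate 3 (0.22, adjusted p = 0.0867) or 72 h replicate 2 (0.28, adjusted p = 0.0712).

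**Figure D2:**
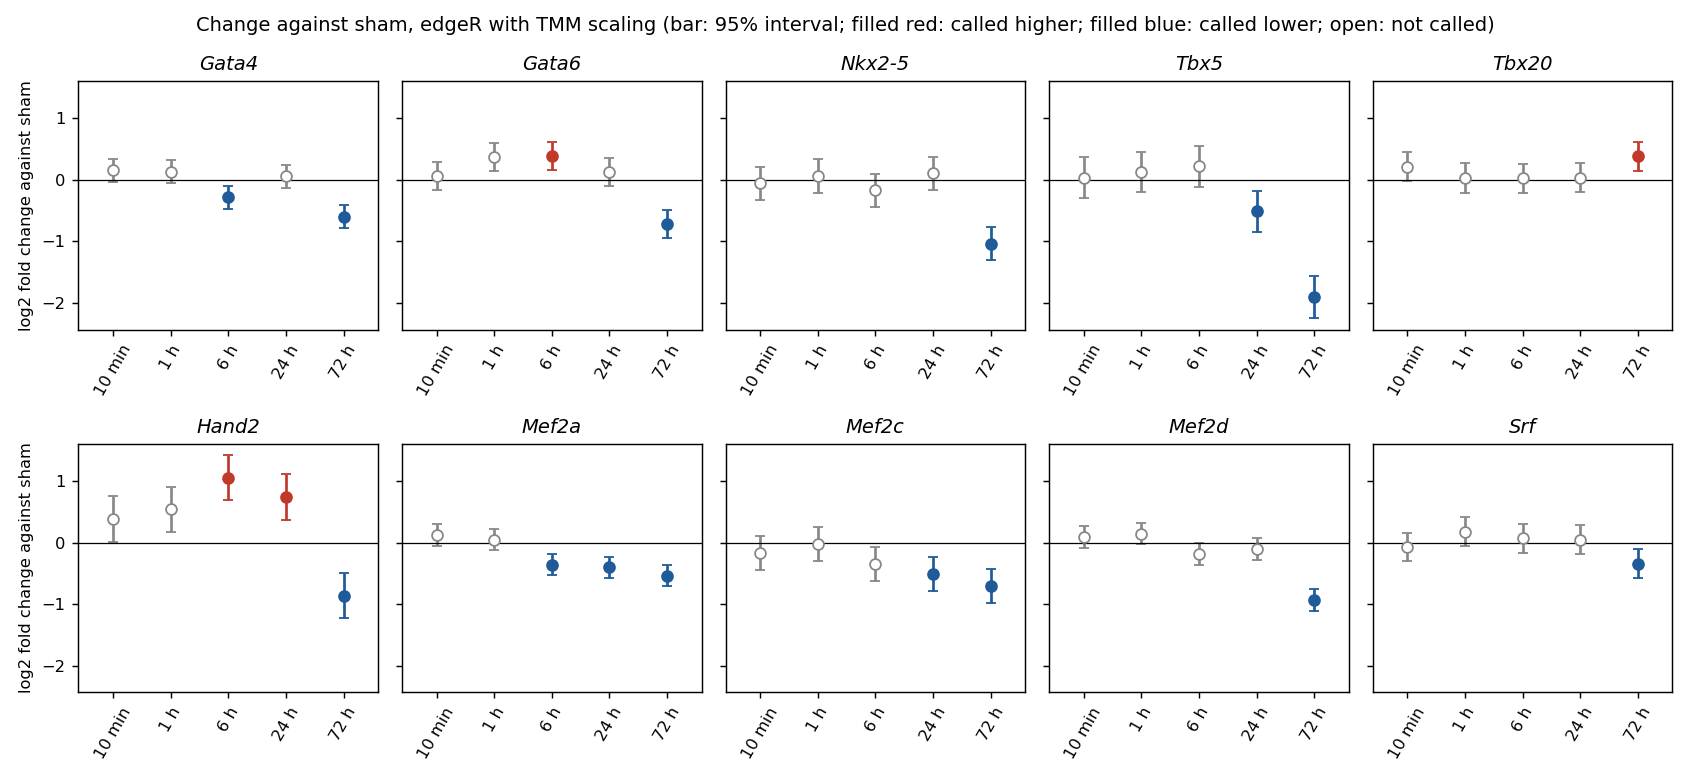
Log2 fold change of each factor against sham at the 5 times after ligation (edgeR, TMM scale; bars, 95% interval; filled points, adjusted p under 0.05). Hand2 rose to 1.05 at 6 h before falling to -0.86 at 72 h, and Tbx5 reached -1.90. By library total only Nkx2-5, Tbx5 and Mef2d were called lower at 72 h, and Mef2a and Srf were at 0.05 and 0.24, not called.

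Hand2 (ENSMUSG00000038193, chr8:57320983-57324633, + strand), a basic helix-loop-helix factor of the right ventricle and outflow tract in the embryo, had the largest increase of the 10 at 6 h and at 24 h, and was lower by TMM at 72 h. Its CPM were 32.7, 37.3 and 41.2 in sham, 59.0, 50.1 and 35.9 at 10 min and 56.9, 59.5 and 45.5 at 1 h. They were 74.9, 70.8 and 85.1 at 6 h, 68.7, 71.0 and 45.8 at 24 h and 20.1, 19.3 and 21.8 at 72 h. All libraries at 1 h, 6 h and 24 h lay above all sham libraries, those at 10 min overlapped sham, and those at 72 h were below every other library. The change was 0.54 at 1 h (adjusted p = 0.503, not called), 1.05 (SE 0.17, adjusted p = 3.44e-04) at 6 h and 0.74 (SE 0.17, adjusted p = 0.00264) at 24 h. The increases at 6 h and 24 h were called on all 3 scales: by library total 0.94 and 0.93, and against the markers 1.16 and 1.44. Without 6 h replicate 1 the 6 h change was 1.07 (adjusted p = 0.00139). At 72 h Hand2 was at -0.86 (SE 0.18, adjusted p = 3.48e-04) by TMM, -0.28 (adjusted p = 0.163) by library total and 0.93 (adjusted p = 3.55e-05) against the markers. The drop from 24 h to 72 h was -1.60 (SE 0.18, adjusted p = 1.17e-06) by TMM and -1.21 by library total (adjusted p = 1.29e-05). The smaller step from 1 h to 6 h, 0.51 (SE 0.17, adjusted p = 0.0391), missed the threshold in 8 of 18 leave-one-library-out fits: without sham replicate 2, 10 min replicate 2, any 1 h replicate, 6 h replicate 1 or 3, or 72 h replicate 1 (values 0.40 to 0.59, adjusted p up to 0.156).

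Hand2 shares 461 of its 2351 exon bases (19.6%) with Hand2os1, a noncoding gene on the opposite strand, and whether reads were counted by strand is not given in the sources used here. The mean of Hand2os1 was 47.9, 42.0, 34.9 and 19.1 CPM in sham and at 6 h, 24 h and 72 h, so at 6 h and 24 h the mean of Hand2 was above and that of Hand2os1 below its own sham mean. The RefSeq table of promoters held windows for 7 members and 9 starts. The Hand2 window is shown because it held matches to the motifs of 3 of the families in the set (chr8:57320733-57320822, GRCm38.p6, + strand, bases 250 to 161 upstream of the start, 5′ to 3′). Capitals mark, in order, a match to the HAND E-box (CATCTG), a match on the other strand to the NKX motif (CAAGTG), and matches on this and then the other strand to the GATA motif (written AGATAA or, in its second form, TGATAA).
Hand2: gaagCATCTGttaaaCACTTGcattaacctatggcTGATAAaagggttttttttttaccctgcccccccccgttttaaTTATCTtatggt
With both strands searched over 250 bases, the GATA motif was present in 16.6% of 32851 mouse promoter windows, the NKX motif in 11.6% and the E-box in 14.4%, so each match is common. The 4 matches do not overlap each other, and they describe letters, not binding. The stretch overlaps an exon of Hand2os1.

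Mef2a (ENSMUSG00000030557, chr7:67231163-67372858, - strand), the paralog tied to mitochondrial and contractile upkeep in the adult heart, was at 164, 159 and 153 CPM in sham, 171, 169 and 178 at 10 min and 157, 168 and 167 at 1 h. It was 132, 124 and 114 at 6 h, 130.5, 118 and 112 at 24 h and 114, 109.9 and 104 at 72 h, with every library from 6 h on below every sham library and those at 10 min above, the latter without a call. At 6 h, 24 h and 72 h the changes against sham were -0.36 (SE 0.082, adjusted p = 0.00313), -0.40 (SE 0.082, adjusted p = 7.95e-04) and -0.54 (SE 0.082, adjusted p = 1.25e-05) by TMM. By library total they were -0.47, -0.21 and 0.05, the last not called (adjusted p = 0.61), and against the markers -0.24, 0.33 and 1.25, so only the 6 h value kept its sign on all scales and the 6 h call was lost against the markers (adjusted p = 0.266). Without 6 h replicate 1, the 6 h change was -0.41 (adjusted p = 0.00456).

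Mef2c (ENSMUSG00000005583, chr13:83504034-83667080, + strand), the paralog needed for the looping heart and also made in endothelial cells, was at 70.8, 78.3 and 74.0 CPM in sham, 57.5, 66.1 and 74.9 at 10 min and 69.7, 72.8 and 76.1 at 1 h. It was 57.4, 65.2 and 52.3 at 6 h, 57.3, 60.1 and 39.0 at 24 h and 44.3, 48.0 and 44.9 at 72 h. From 6 h on, all libraries were below all sham libraries. The 6 h value, -0.35 (SE 0.13, adjusted p = 0.054), was not called, and those at 24 h and 72 h were called at -0.51 (SE 0.13, adjusted p = 0.00452) and -0.70 (SE 0.13, adjusted p = 1.26e-04). At 24 h the lowest animal was replicate 3, which also had the lowest cardiomyocyte marker sum of its group (39435 CPM) and the highest neutrophil marker sum (1058 CPM); their part in the result was not tested. By library total the values at 24 h and 72 h were -0.31 (adjusted p = 0.0858) and -0.11 (adjusted p = 0.484), and against the markers 0.19 (adjusted p = 0.315) and 1.09 (adjusted p = 4.10e-06).

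Mef2d (ENSMUSG00000001419, chr3:88142372-88172086, + strand), the paralog linked to stress remodelling of the adult heart, was at 147, 149 and 143 CPM in sham, 136, 171 and 157 at 10 min and 156, 159 and 170.0 at 1 h. It was 135, 125 and 124 at 6 h, 139, 132 and 137 at 24 h and 79.6, 74.3 and 74.7 at 72 h. The 1 h libraries lay above all sham libraries (0.15, adjusted p = 0.939), and the 6 h and 24 h libraries below them, without a call against sham (-0.19, adjusted p = 0.1, and -0.10, adjusted p = 0.329). The step down from 1 h to 6 h was called, -0.34 (SE 0.085, adjusted p = 0.00777). At 72 h the change was -0.94 (SE 0.085, adjusted p = 2.38e-08) by TMM and was called lower by library total, -0.35 (adjusted p = 0.00253), and was 0.85 (adjusted p = 3.87e-05) against the markers.

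Srf (ENSMUSG00000015605, chr17:46548329-46556175, - strand), the factor of the CArG box, had the smallest decrease at 72 h. Its CPM were 128, 135 and 146 in sham, 135, 138 and 115 at 10 min and 145, 156 and 159.8 at 1 h. They were 169, 119 and 140.2 at 6 h, 146, 146 and 129 at 24 h and 109.6, 107 and 104 at 72 h. Every group up to 24 h overlapped sham, and the 72 h libraries were below it. The 72 h change was -0.35 (SE 0.11, adjusted p = 0.0104) by TMM, 0.24 (adjusted p = 0.0531) by library total and 1.44 (adjusted p = 3.24e-08) against the markers, so its direction depends on the scale. The fits on log2(FPKM + 1), which follow the library total, called it higher (0.24 on that scale, limma adjusted p = 0.0449). In the 6 h group replicate 1, the library with atrial transcripts, was highest, and without it the 6 h change was -0.07 (adjusted p = 0.695) in place of 0.07.

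Srf is a target of its own protein, and its promoter is shown for the CArG boxes that SRF binds (chr17:46556203-46556272, GRCm38.p6, - strand, bases 110 to 41 upstream of the RefSeq start, 5′ to 3′, with the CArG matches in capitals).
Srf: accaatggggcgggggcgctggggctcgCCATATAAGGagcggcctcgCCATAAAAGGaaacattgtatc
The matches lie 82 to 73 and 62 to 53 bases before the start. A CArG box was present in 1.47% of 32851 promoter windows, and of the 9 windows of the members only that of Srf held any. A MEF2 site was present in 2.92% of windows and in none of those of the members. The NKX motif, the TBX motif AGGTGT and the E-box were each matched at 1 of the 3 Mef2c starts, and the windows of Nkx2-5, Tbx20, Mef2a and Mef2d held no match to any of the motifs searched.

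**Figure D3:**
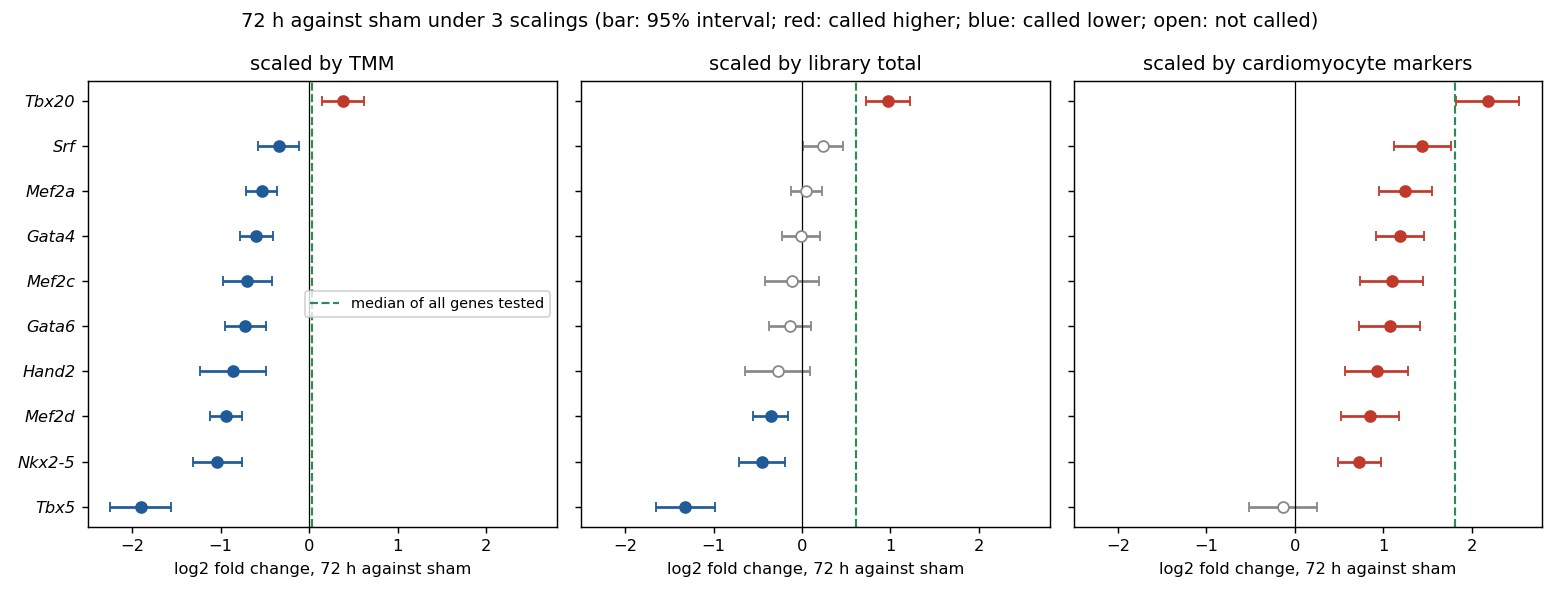
Log2 fold change of the 10 factors at 72 h against sham with libraries scaled by TMM, by the library total or by 15 cardiomyocyte markers (points, edgeR estimate; bars, 95% interval; dashed line, median of all tested genes at 0.03, 0.61 and 1.81). Tbx20 lies right of 0 in all panels, Tbx5 is called lower by TMM and library total and lies at -0.13 by the markers, and the other 8 change sign between panels.

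Set against the 15 cardiomyocyte markers, 9 of the 10 factors were higher at 72 h, as most tested genes were. At 6 h 2 of 10 members were called higher on this scale, Gata6 and Hand2, against 15.9% of genes called either way and 11.1% called higher. The Gata6 call (0.50, adjusted p = 0.0441) was lost (0.38 to 0.57, adjusted p up to 0.211) without any 1 of the sham, 10 min or 6 h libraries, 1 h replicate 1 or 2, or 72 h replicate 3, and with the markers' summed counts as scale (adjusted p = 0.0511). At 24 h 8 of 10 were called higher, all but Tbx5 and Mef2c, against 67.8% of genes called and 65.2% called higher. The weakest of the 8, Mef2a (0.33, adjusted p = 0.0417), was lost (0.20 to 0.34, adjusted p up to 0.217) without any 1 of the sham or 1 h libraries, 10 min replicate 2 or 24 h replicate 3. At 72 h 9 of 10 were called higher, against 89.9% and 88.6%, and Tbx5 was the exception. The count at 72 h is therefore near the background, and the members' median of 1.08 lay under the 1.81 of all genes. The fibroblast, macrophage and endothelial sums given above moved over the same times, and their part in these values was not tested.

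Steps between consecutive times were tested directly. From 10 min to 1 h 0 members were called (0.307% of genes), with 2 at an unadjusted p under 0.05 (7.43% of genes) and 0 in DESeq2. From 1 h to 6 h 4 were called (24.5%): Hand2 higher (14.5% of genes), and Gata4 (-0.41), Mef2a (-0.41) and Mef2d lower (10% of genes). From 6 h to 24 h 2 were called (27.8%), Gata4 higher (14.2%) and Tbx5 lower (13.7%) at -0.73 (SE 0.16, adjusted p = 0.0025). From 24 h to 72 h 8 were called (50.5%): Tbx20 higher (24.4%), and Gata4 (-0.65), Gata6 (-0.85), Nkx2-5, Tbx5 (-1.39), Hand2, Mef2d (-0.83) and Srf (-0.39) lower by TMM (26.1%), of which Srf was at -0.0018 by library total, and of these 8 only Tbx20 and Hand2 were called the same way against the markers, where Gata4 (0.40) and Srf (0.66) were called higher. Mef2a and Mef2c, already called lower at 24 h by TMM, were not called in this last step by TMM. By library total Mef2a was called higher in it (0.26, adjusted p = 0.0133) and Mef2c was not called (0.20, adjusted p = 0.257). Against the markers both were called higher, at 0.92 and 0.90. On that scale the median of all tested genes moved by 1.02 in this step. Gata4, Srf, Mef2a and Mef2c thus lay under the typical gene there, although called higher. The share of all genes called on that scale is not given for this step.

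Ratios between paralogs of a library do not depend on how libraries are scaled. Made from FPKM, their levels do depend on the gene lengths used, which were 5985 bases for Mef2d, 14681 for Mef2a and 15715 for Mef2c. In sham CPM, not divided by length, Mef2a (mean 159) was above Mef2d (mean 146). Of summed Mef2 FPKM, Mef2d made up 61.1% ± 0.0825 (SD, n = 3) in sham, 66.4% ± 2.59 at 24 h and 55.1% ± 0.909 at 72 h. Mef2a made up 27.1% ± 0.631, 23.9% ± 0.920 and 32.3% ± 0.496, and Mef2c 11.8% ± 0.551, 9.67% ± 1.95 and 12.6% ± 0.756. The Mef2a share was below all sham values at 6 h and 24 h and above them at 72 h, and the Mef2d share did the reverse. As parts of the same sum, the shares are partly bound to move in opposite directions. The Mef2d share was also above all sham values at 1 h (63.1%), and the Mef2c share below them at 10 min (10.0%) and 1 h (10.8%). The log2 ratio of Gata4 to Gata6 was 0.87 ± 0.19 in sham, 0.20 ± 0.065 at 6 h, below all sham values, and 0.99 ± 0.12 at 72 h. For Tbx5 to Tbx20 the log2 ratio in sham, -0.31 ± 0.16, compared with -0.87 ± 0.35 at 24 h and -2.60 ± 0.27 at 72 h, without overlap with sham at either time. In 12 of 25 comparisons with sham the groups did not overlap, each with an exact two-sided permutation p of 0.1, the smallest that 3 against 3 allows (0.208 adjusted over the 25). The 25 are not independent, since the 3 Mef2 shares are parts of the same sum and all reuse the same 3 sham libraries. No such count was made for other gene pairs, so the 12 have no background to be read against.

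**Figure D4:**
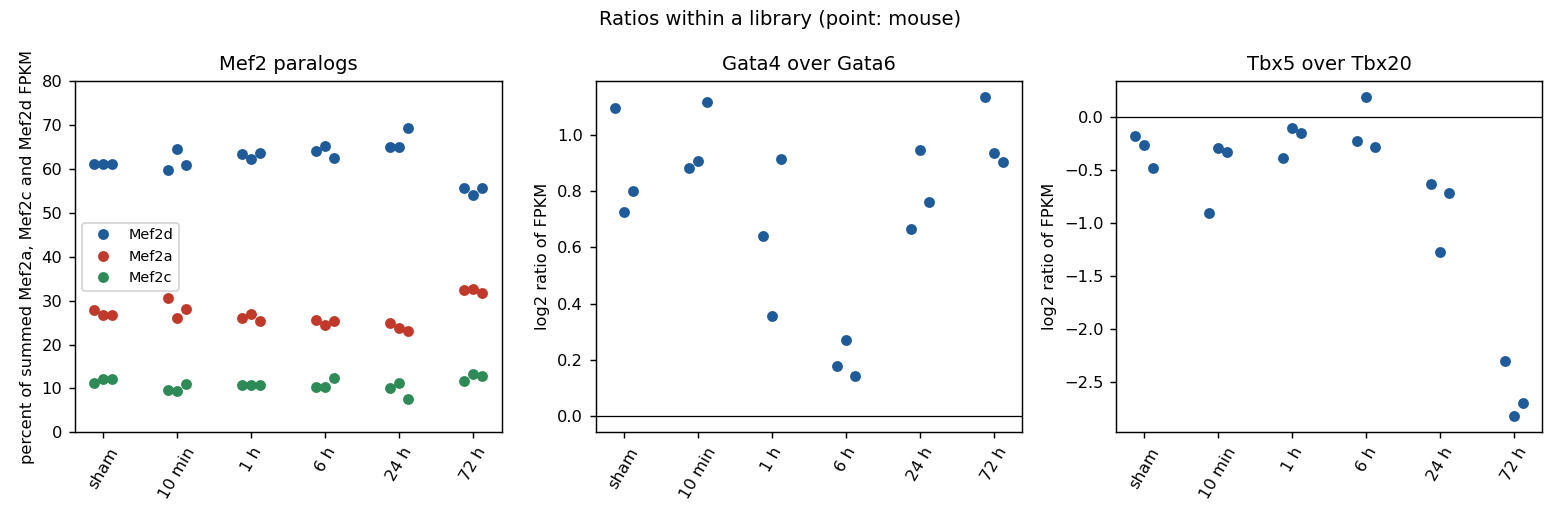
Ratios within each library, from the deposited FPKM: the percent of summed Mef2 FPKM held by each Mef2 gene, and the log2 ratios of Gata4 to Gata6 and of Tbx5 to Tbx20 (points, mice; 3 per group). The Gata4 to Gata6 ratio dips to 0.14 to 0.27 at 6 h, and the Tbx5 to Tbx20 ratio drops to between -2.82 and -2.30 at 72 h.

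Across the 18 libraries, the pairs of members with the most alike TMM-scaled log2 CPM were Gata6 with Hand2 (r = 0.92), Tbx5 with Mef2d (r = 0.91) and Gata4 with Mef2d (r = 0.90). Tbx20 was negatively related to the others, down to r = -0.66 with Nkx2-5. These values describe 18 points that share 6 group means and the tissue changes above. Among 10294 other genes, Tbx5 was most like Ivd (r = 0.99), of leucine breakdown, and Acss1 (r = 0.99), a mitochondrial acetyl-CoA synthetase. Nkx2-5 was most like Cdc34 and Cuedc1 (both r = 0.98), and Mef2a most like Phactr2 and Clasp2 (both r = 0.98). Mef2d was most like Mllt6 and the desmosomal cadherin gene Dsg2 (both r = 0.97). Gata6 was most like Plekhm2 (r = 0.96) and Zbtb16 (r = 0.95), Hand2 most like Popdc3 (r = 0.95) and Parvb (r = 0.94), and Mef2c most like Ephx1 (r = 0.95) and Krt222 (r = 0.93). Gata4 was most like Prcc (r = 0.95) and Arvcf (r = 0.94). Tbx20 with Prkacb (r = 0.88) and Lamc1 (r = 0.85), and Srf with Map4 (r = 0.87) and Dnaja4 (r = 0.87), had the least similar nearest genes.

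Among other transcription factors of the heart, cofactors and targets, counts at 72 h are read against all tested genes: 34.2% were higher and 32.2% lower by TMM, 58.1% and 14.6% by library total, and 88.6% and 1.26% against the markers. Of 17 relatives listed, 13 were tested; by TMM 11 were lower and 2 higher, with a median of -1.10, and by library total 7 were lower and 2 higher, while against the cardiomyocyte markers 10 were higher and 1 lower. Hopx, a homeodomain-only partner of SRF, went from 225 ± 29.4 CPM in sham to 48.7 ± 11.5 (-2.21, SE 0.19, adjusted p = 2.08e-08, and lower on all 3 scales), and the ventricular factor Irx4 from 44.4 ± 0.574 to 14.1 ± 2.77 (-1.66, SE 0.20, adjusted p = 9.90e-07, but 0.10 against the markers). Tbx18, a T-box gene of the epicardium and mural cells, went from 4.27 ± 0.443 to 10.3 ± 1.30 CPM (1.27, SE 0.18, adjusted p = 4.84e-06), and Gata5 from 0.232 ± 0.223 to 0.818 ± 0.666 CPM (1.74, SE 0.71, adjusted p = 0.0369). Of 6 epicardial markers, 4 were higher at 72 h and their sum was 20.0 to 63.4 CPM against 11.7 to 21.5 in sham; their part in these 2 changes was not tested.

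Among 19 cofactors and regulators, 11 were lower and 5 higher at 72 h by TMM (median -0.46), 4 lower and 9 higher by library total, and 19 higher against the markers, where 88.6% of all genes were. Smyd1, a muscle methyltransferase gene, went from 527 ± 8.92 to 196 ± 21.9 CPM (-1.42, SE 0.15, adjusted p = 1.07e-07), and Hdac4, a class II deacetylase that restrains MEF2, from 26.3 ± 2.21 to 13.2 ± 0.803 (-0.99, SE 0.11, adjusted p = 3.74e-07); against the markers they were higher, by 0.35 and 0.81. Mrtfa, the actin-sensing cofactor of SRF, went from 9.56 ± 0.513 to 24.3 ± 1.79 CPM (1.35, SE 0.15, adjusted p = 2.49e-07), and Mapk7, a kinase that activates MEF2, from 15.0 ± 1.42 to 37.0 ± 0.291 (a log2 change of 1.3, SE 0.18, adjusted p = 5.04e-06); both were higher on all 3 scales.

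Targets of these factors are given by kind, in lists chosen with earlier results of these data known. Of 22 cardiac target genes, 16 were lower and 2 higher at 72 h by TMM (median -1.25), 14 lower and 5 higher by library total, and 6 lower and 14 higher against the markers, and 11 of the 22 are themselves among the 15 markers. Myl2, the ventricular regulatory light chain, went from 8280 ± 454 to 1655 ± 339 CPM (-2.32, adjusted p = 2.17e-09, and lower on all 3 scales), and the natriuretic peptide gene Nppa from 145 ± 58.4 to 608 ± 38.8 CPM (2.06, adjusted p = 0.000161, and higher on all 3 scales). The 8 growth-response targets of SRF were called higher at times when Srf itself was not: 6 were called at 1 h (median 3.28), 8 at 6 h (median 3.79), and 8 at 24 h (median 2.26), against 0.288%, 16.3% and 23.7% of all genes called higher. At 72 h, with Srf lower by TMM, 7 were higher, and 0 were called lower at any of these times. Fos was at 1.71 ± 0.436 CPM in sham and 219 ± 58.2 at 1 h (7.0, adjusted p = 0.000143), and Egr2 at 0.444 ± 0.195 in sham and 15.1 ± 2.95 at 72 h. Of 10 cytoskeletal targets of SRF, 0 were called at 1 h and 8 were higher and 1 lower at 72 h (median 1.38; 9 higher and 1 lower by library total). Actb rose from 296 ± 40.1 to 1509 ± 103 CPM (2.35, adjusted p = 1.20e-07), whereas Tpm1, whose heart form is sarcomeric, fell from 8577 ± 401 to 3409 ± 360 CPM (-1.33, adjusted p = 2.85e-08; -0.75 by library total, and 0.45 against the markers). Actb and several of the others are abundant in fibroblasts and macrophages, whose marker sums rose over the same interval, and the part of that in the result was not tested.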

How the data were processed

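RNA-seq libraries of 18 mice (6 groups of 3) were read with the deposited gene counts, which the authors made from trimmed reads. The submitters' processing notes name cutadapt 1.18, HISAT2 2.1.0, featureCounts and mm10; use of strand in counting is not given in the sources used here. FPKM deposited by the authors were used for levels per length and ratios; the FPKM columns of 6 h replicates 2 and 3 hold each other's libraries, matched to their counts here, and 0 count values differ between the deposited tables.

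Genes with low counts (14272 of 30583) were removed with filterByExpr. Libraries were scaled by TMM, and 16311 genes were fitted in edgeR 4.0.16 (R 4.3.3) with 1 mean per group, robust quasi-likelihood dispersion and Benjamini-Hochberg adjustment over all of them (threshold 0.05, 12 residual degrees of freedom, common biological coefficient of variation 0.149). A further fit used the mean log2 count of 15 cardiomyocyte markers as offset. Alternatives were RLE and library total scaling, other filters, DESeq2 1.42.0, limma 3.58.1 on log2(FPKM + 1) and log2(FPKM + 0.1), fewer libraries and a replicate block. The fit was also run on simulated data in which few genes changed. That does not test TMM scaling where most genes move, as at 72 h. Libraries held 18.2 to 25.1 M counts, and the members 185 or more counts in each. That each library is 1 mouse is read from 18 libraries and 18 mice, and p-values measure the spread between these libraries.

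All 10 members are named. Of each other list, the 2 called genes with the smallest adjusted p in each direction at 72 h could be named (for growth-response targets of SRF also at 1 h and 6 h), and for each member the 2 genes of highest Pearson r over 18 libraries among tested genes of at least 5 CPM. The members and lists were chosen with earlier results of these data known. The comparison of 72 h with 6 h was chosen after the values were seen. Promoter sequences are from RefSeq (GRCm38.p6), gene positions from GENCODE M21, and DNA methylation was not analysed here.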

Additional observations from a re-analysis of the deposited data

Results flagged for a closer look

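Each value here is a difference between 2 time points after ligation tested directly in edgeR (log2, TMM scale, adjusted over 16311 genes). From 1 h to 6 h these were Gata4 at -0.41 (adjusted p = 0.00311), Mef2a at -0.41 (adjusted p = 0.00165), Mef2d at -0.34 (adjusted p = 0.00777) and Hand2 at 0.51 (adjusted p = 0.0391). From 6 h to 24 h Gata4 moved by 0.34 (adjusted p = 0.00890) and Tbx5 by -0.73 (adjusted p = 0.00250). The Gata4 step missed the threshold with only the 6 libraries compared (adjusted p = 0.142), and its 6 h difference from sham missed it in several alternatives, with no filter on low counts among them (adjusted p = 0.0757). From 24 h to 72 h the values were -0.65 for Gata4, -0.85 for Gata6, -1.14 for Nkx2-5, -1.39 for Tbx5, -1.60 for Hand2, -0.83 for Mef2d and -0.39 for Srf, and 0.35 for Tbx20 (adjusted p from 2.93e-07 to 0.0145). Against the cardiomyocyte markers only Hand2 and Tbx20 of these 8 were called the same way, on a scale where the median of all tested genes moved by 1.02. By TMM Hand2 and Gata6 were called higher at 6 h and lower at 72 h against sham, and between these times they differed by -1.91 (adjusted p = 6.00e-08) and -1.10 (adjusted p = 7.72e-08) by TMM. Against the markers Hand2 was at -0.23 between these times (adjusted p = 0.195, not called) and Gata6 at 0.58 (adjusted p = 0.00262), called higher. The median of all tested genes moved by 1.67 on that scale, so both lay under the typical gene.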

How the results depend on the processing

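Of 1244 alternatives to 51 results on single members, 1166 kept the direction and the side of the threshold, 70 lost the call and 8 changed sign. Those 8 were Mef2a at 72 h (0.0486 by library total; 0.0437 and 0.0475 by limma on log2(FPKM + 1) and log2(FPKM + 0.1)), Srf at 72 h (0.24 in each of these) and Srf from 24 h to 72 h (0.0021 and 0.0023 by limma). Most of the 1244 left out 1 library in turn, often one outside the groups compared, which moves a result little. Alternatives to the TMM results did not include the marker scale, on which 9 of 10 members were called higher at 72 h, against 1 by TMM. Scaling moved the counts of members called most. At 72 h 4 members were called by library total and 5 by either limma fit, with 3 lower in each and 2 higher by limma. At 6 h these 3 settings gave 1 higher and 4 lower. At 24 h they gave 1 lower, with 2 higher by library total and 3 by limma. Of all genes, library total called 11.7% higher and 17.2% lower at 6 h, and 34.1% and 11.1% at 24 h. At 72 h the shares were 58.1% and 14.6%, so the calls of all genes moved with this scaling too. From 6 h to 24 h these 3 settings called 7, 6 and 6 members, and from 24 h to 72 h 2 higher each. Shares of all genes are not given for the limma fits or for these steps, so those counts have no background here. With only the 6 libraries compared, 1 member was called at 1 h, 1 from 6 h to 24 h and 0 higher from 24 h to 72 h. With the markers' summed counts as offset 1 was called at 6 h.

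Leaving out each library in turn gave 2 to 5 called at 6 h (1 to 2 higher, 1 to 3 lower), 3 to 4 at 24 h (2 to 3 lower), 10 at 72 h, 3 to 5 from 1 h to 6 h, 1 to 3 from 6 h to 24 h, and 7 to 8 from 24 h to 72 h (0 to 1 higher, 7 to 8 lower). It gave 9 to 10 over all times, 1 to 2, 7 to 8 and 9 against the markers at 6 h, 24 h and 72 h, 12 to 15 ratios without overlap, and 0 at 10 min, 1 h and between them.

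With the replicate number as a block, counts were 0, 0, 4, 4 and 10 at the 5 times, and Mef2a at 24 h against the markers was lost (0.33, adjusted p = 0.0524), so 7 were called there. Deviations of libraries from their group means were correlated between groups. Of 45 same-numbered pairs 4 had r over 0.1 (range -0.256 to 0.252, median 0.035), and of 90 other-numbered pairs 9 did (median -0.013). With 3 libraries a group, these values cannot settle whether the numbers pair the samples.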
